A study of Mus musculus with 2 samples.

Results

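The ADAMTS proteases are secreted zinc metalloproteinases that carry thrombospondin type 1 repeats and cut proteins of the extracellular matrix. The genes described here are Adamts1, Adamts2, Adamts4, Adamts5, Adamts6, Adamts7, Adamts9, Adamts10, Adamts12 and Adamts15, taken by gene symbol from a count table of 35275 Ensembl genes. They are 10 of the 19 ADAMTS genes in that table and 10 of the 11 with at least 20 counts. The other such gene, Adamts14, was not among the listed genes, and its values are given beside them because it differed in direction from most of them.

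RNA sequencing compared MSPC, the mesenchymal stem/progenitor cells of bone marrow and a source of its bone, cartilage and fat lineages, from C57BL/6 mice of 2 genotypes. Control mice were Ptpn11+/+ and mutant mice Ptpn11E76K/+, and both carried Nestin-Cre, a Cre recombinase driven by the Nestin promoter and so not limited to one marrow cell type. E76K is an activating amino acid change in SHP2, the phosphatase that Ptpn11 encodes and that promotes RAS-ERK signalling. The cells were sorted as CD140+ Sca-1+ after removal of CD45+, Ter-119+ and CD31+ cells, and there was 1 library per genotype. The sources used here state no age or sex of the mice and do not say whether mice were pooled. Every difference below therefore lies between 2 libraries, has no replicate check and carries no test.

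ADAMTS enzymes are made as inactive precursors, cut by furin-like convertases, and held in check mainly by TIMP3. By substrate they fall into proteoglycanases, which cut aggrecan and versican (ADAMTS1, 4, 5, 9 and 15), procollagen N-proteinases, which trim the amino end of fibrillar procollagens (ADAMTS2 and 14), enzymes known for cutting COMP (ADAMTS7 and 12), and relatives tied to fibrillin microfibrils (ADAMTS6 and 10). In stromal and skeletal tissue they are known for remodelling the pericellular matrix and for cartilage breakdown.

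Counts summed to 22328659 in the control library and to 18010963 in the mutant one. Levels are in CPM, which sets each gene's counts against its library's total after scaling by the TMM method. A ratio is the mutant level over the control level, given as a fold lower where it is below 1, with a 95% exact interval from how its counts divide over both libraries. Intervals cover counting error only. A gene with at least 20 counts over both libraries was called when its whole interval lay beyond 2-fold. By this rule 8.29% of the 13142 genes with enough counts were called lower and 6.98% higher in the mutant library. Of the sorted markers, Ptprc (CD45) had 1 control and 12 mutant counts, Pecam1 (CD31) 5 and 2, and Pdgfra (a CD140 gene) 2073 and 1792. Ly6a (Sca-1) had a 2.67-fold lower level (2.44 to 2.93) and Nes a 2.76-fold higher one (2.67 to 2.86) in the mutant library.

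Among the 10 ADAMTS genes the mutant library had 4 called lower, 0 called higher and 6 not called, and the ratio was below 1 for 9 of them. The 4 were Adamts1, Adamts5, Adamts9 and Adamts15, all proteoglycanase genes. All 10 had 100 or more counts over both libraries, and among the genes at that depth 7.95% were called lower. The median log2 ratio of the 10 was -1.19, beside 0.01 over all genes with enough counts, of which 49.9% had a ratio below 1. By the ratio alone, 7 of the 10 were more than 2-fold lower, as were 14.6% of all genes with enough counts. In bulk RNA, fewer cells that express a gene and less RNA per cell cannot be told apart.

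**Figure D1:**
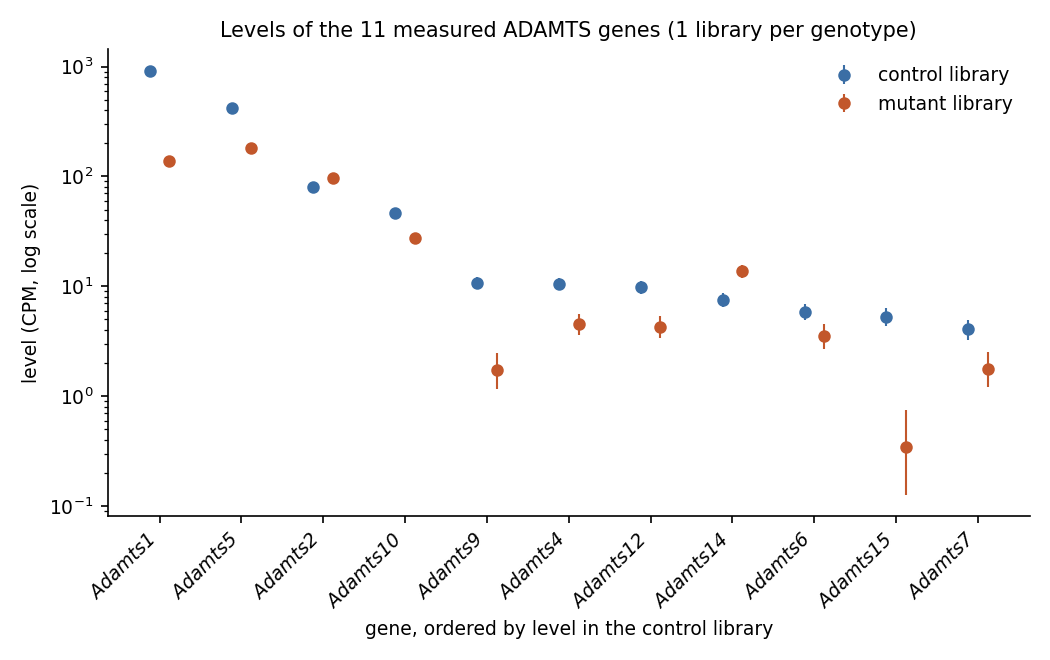
Level of each measured ADAMTS gene in CPM (vertical axis, log scale) in the control library (blue) and the mutant library (orange), with genes ordered by their control level and bars for 95% exact Poisson intervals. Adamts1 and Adamts5 lie far above the others in the control library but near Adamts2 (96.6 CPM) in the mutant library, and only Adamts2 and Adamts14 are higher in the mutant library.

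Adamts1, whose enzyme cuts versican and aggrecan, had 21000 control and 2388 mutant counts. It was the most abundant of the genes in the control at 908 CPM and stood at 137 CPM in the mutant, 6.61-fold lower (6.34 to 6.90). Of all genes with enough counts, 2.08% had a lower ratio. Adamts5, which encodes the main aggrecan-cutting enzyme of mouse cartilage, had 9662 and 3146 counts, or 418 and 181 CPM. It was 2.31-fold lower (2.22 to 2.40), so its narrow interval lay just beyond the threshold. Without the trends of the ratio over transcript length and GC content it was 1.59-fold lower (1.53 to 1.66) and not called. Its transcript of 10791 bases is the longest of the 10.

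Adamts9, a broadly expressed proteoglycanase gene, had 250 control and 30 mutant counts. That is 10.8 and 1.73 CPM, or 6.26-fold lower (4.28 to 9.48). Adamts15, another versican-cutting enzyme gene, had 122 and 6 counts. It was 15.3-fold lower (6.82 to 42.5), the largest fold among the 10 and the least precise. With 6 counts in the mutant library it reached the minimum count only through the control library. Adamts4, the second well-known aggrecanase gene, had 244 and 79 counts, which put it 2.32-fold lower (1.79 to 3.03). Its point value matched that of Adamts5, but with far fewer counts its interval crossed the threshold, and it was not called.

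The promoters of Adamts1 and Adamts9, which were called lower, are shown with that of Adamts2, the member that was not lower, so that their sequences can be compared. Of the 10 genes, 4 had an entry in the RefSeq promoter table (build GRCm38.p6), the remaining one being Adamts12. Each window runs from 250 bases before the annotated start to 50 bases after it, 5′ to 3′ on the gene's strand. Capitals mark a TATA box (TATAAA) or a GC box (GGGCGG), each searched on both strands. The Adamts1 window lies at chr16:85803064-85803363 (minus strand), that of Adamts9 at chr6:92943485-92943784 (minus strand) and that of Adamts2 at chr11:50601835-50602134 (plus strand).
Adamts1: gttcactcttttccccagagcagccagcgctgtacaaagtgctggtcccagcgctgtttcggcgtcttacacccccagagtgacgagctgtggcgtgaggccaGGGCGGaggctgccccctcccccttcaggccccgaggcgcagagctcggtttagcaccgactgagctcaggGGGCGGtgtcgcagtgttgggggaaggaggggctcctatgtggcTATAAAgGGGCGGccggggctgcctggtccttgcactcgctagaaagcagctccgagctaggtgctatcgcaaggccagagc
Adamts9: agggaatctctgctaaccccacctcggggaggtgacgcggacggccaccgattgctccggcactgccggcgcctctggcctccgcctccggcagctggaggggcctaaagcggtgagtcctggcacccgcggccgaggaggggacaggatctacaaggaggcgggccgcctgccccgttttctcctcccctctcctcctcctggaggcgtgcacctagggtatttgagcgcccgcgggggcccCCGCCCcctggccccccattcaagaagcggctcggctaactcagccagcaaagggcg
Adamts2: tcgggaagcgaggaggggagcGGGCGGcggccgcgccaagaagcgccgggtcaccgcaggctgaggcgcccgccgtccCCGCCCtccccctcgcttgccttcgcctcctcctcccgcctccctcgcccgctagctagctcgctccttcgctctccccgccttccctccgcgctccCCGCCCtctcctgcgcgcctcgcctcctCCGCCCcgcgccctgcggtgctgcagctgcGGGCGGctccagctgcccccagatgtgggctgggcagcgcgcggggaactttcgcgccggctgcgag

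The Adamts1 window holds a TATA box that begins 32 bases before the start and 3 GC boxes that begin 147, 76 and 25 bases before it. A TATA box was found in 13.6% of the 32851 windows in the table and a GC box in 35.7%. Adamts2 holds 5 GC boxes and no TATA box, Adamts9 holds 1 GC box, and Adamts12 neither. The GC content was 64.7% for Adamts1, 70.0% for Adamts9 and 77.3% for Adamts2. An AP-1 site (TGANTCA), a CRE (TGACGTCA) and an E-box (CACGTG) were also searched on both strands and were in none of the 4 windows. They were in 7.81%, 1.79% and 7.15% of all windows. The starts of the Adamts9 and Adamts12 windows matched no transcript start of GENCODE M21, whereas those of Adamts1 and Adamts2 each matched one. A match to these letters is not evidence of binding.

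Adamts7 and Adamts12 encode a pair of related enzymes that can cut COMP, a cartilage and tendon matrix protein. Adamts7 had 94 control and 31 mutant counts, 2.28-fold lower (1.5 to 3.54). Adamts12 had 227 and 75, 2.28-fold lower (1.75 to 3.0). Neither was called, since both intervals reached below 2-fold, and for Adamts12 the value was 1.77-fold (1.35 to 2.32) without the length and GC trends. The count ratio of Adamts7 to Adamts12 was 0.414 (control) and 0.413 (mutant), and the change in that ratio was 1.0 (0.605 to 1.68). This change needs no scaling of the libraries, but its interval is wide enough to hold a clear difference between the pair.

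Adamts6 and Adamts10 encode close relatives linked to fibrillin microfibrils. Adamts10 had 1068 and 483 counts, which put it 1.66-fold lower (1.49 to 1.85). Adamts6 had 135 and 61 counts and was also 1.66-fold lower (1.22 to 2.29). Neither was called. The change in the count ratio of Adamts6 to Adamts10 was 1.0 (0.720 to 1.40). Without the length and GC trends the Adamts6 value was 1.25-fold (0.918 to 1.72), while that of Adamts10 was 1.68-fold (1.51 to 1.88), so the equal values depend on that choice.

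The procollagen N-proteinase gene Adamts2 had 1866 control and 1679 mutant counts, or 80.7 and 96.6 CPM. It was 1.20-fold higher (1.12 to 1.28) and not called. Adamts14, a second N-proteinase gene, had 174 and 238 counts and was 1.82-fold higher (1.49 to 2.23), also not called. Relative to Adamts14, Adamts2 was 1.52-fold lower in the mutant library (1.23 to 1.88). With Adamts14 added to the 10, the median log2 ratio of the 11 genes was -1.18, with 4 called lower and 0 higher. Of the 8 ADAMTS genes below 20 counts, Adamts3, Adamts17, Adamts18 and Adamts19 had 0 counts in both libraries. At this depth a gene with no count could still lie at up to 0.130 CPM (control) or 0.173 CPM (mutant). Adamts20 had 10 and 2 counts, Adamts8 3 and 1, Adamts13 1 and 0, and Adamts16 0 and 1.

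**Figure D2:**
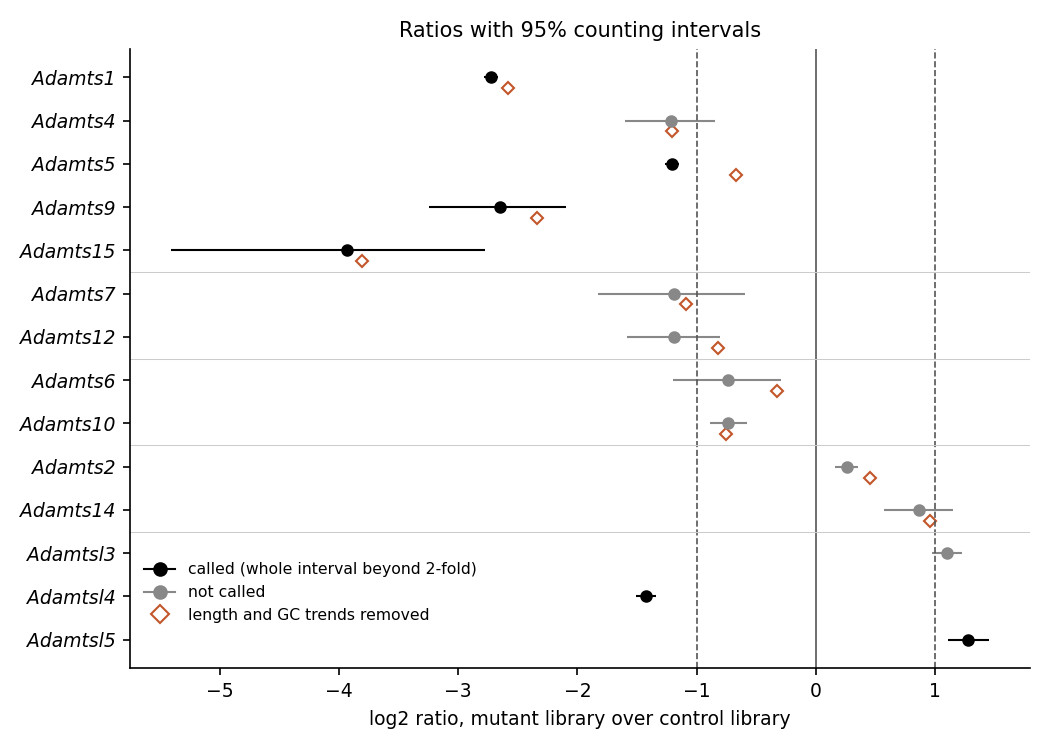
Log2 ratio of the mutant over the control library (horizontal axis) for 11 ADAMTS and 3 ADAMTS-like genes, grouped by relation, with 95% exact counting intervals; dashed lines mark 2-fold, and open diamonds (ADAMTS genes only) give the value with length and GC trends removed. The intervals of Adamts1, Adamts5, Adamts9 and Adamts15 lie whole beyond 2-fold lower, and the diamond of Adamts5 lies inside the line.

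Within the proteoglycanase group the differences were uneven. The count ratio of Adamts1 to Adamts5 was 2.17 (control) and 0.759 (mutant), so Adamts1 was lower by 2.86-fold more than Adamts5 (2.70 to 3.04). Adamts9 had a ratio near that of Adamts1, with a change in their count ratio of 1.06 (0.696 to 1.55). Adamts15 was lower than Adamts1 by a further 2.31-fold (1.03 to 6.43), an interval that nearly reached no difference. Adamts5 and Adamts4 differed in their change by 0.994 (0.759 to 1.29). Adamts7 and Adamts12 had point values like that of Adamts5, with changes relative to Adamts5 of 0.987 (0.650 to 1.54) and 0.986 (0.753 to 1.30). Adamts10 was lower by less than Adamts5 (0.720, 0.641 to 0.809), and Adamts2 departed from Adamts10 in turn (0.503, 0.442 to 0.571). Without the length and GC trends the Adamts5 value moved to that of Adamts10, so its place in this order depends on them.

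To compare genes with one another, levels were divided by the length of the longest annotated transcript, giving CPM per kb. In the control library Adamts1 stood at 186 CPM per kb, Adamts5 at 38.7, Adamts10 at 11.2, Adamts2 at 11.1 and Adamts4 at 2.40, and the remaining 5 lay between 0.756 and 1.35. Adamts10 and Adamts2 did not differ beyond their counting intervals there (10.5 to 11.9 and 10.6 to 11.6), nor did Adamts6 and Adamts7 (0.636 to 0.898 and 0.611 to 0.925). In the mutant library the order was Adamts1 at 28.1, Adamts5 at 16.8, Adamts2 at 13.3, Adamts10 at 6.74 and Adamts4 at 1.04 CPM per kb. Adamts12, Adamts6 and Adamts7 followed at 0.503, 0.456 and 0.331, and then Adamts9 at 0.215, each with an interval that overlapped the next. Adamts15 (0.0582, 0.0214 to 0.127) was the lowest.

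Summed over the 10 genes, the level per length was 254 CPM per kb (control) and 67.5 (mutant), 3.77-fold lower. Adamts1 held 73.1% of the sum (control) and 41.6% (mutant). Without Adamts1 the sum was 1.73-fold lower, and without Adamts1 and Adamts5 it was 1.31-fold lower. The 5 proteoglycanase genes together were at 229 and 46.2 CPM per kb, 4.96-fold lower. Most of both sums was Adamts1 (186 and 28.1 CPM per kb), so this fold mainly reflects that gene. The share of Adamts2 was 4.37% of the sum (control) and 19.7% (mutant), while its own level was 1.20-fold higher. By plain counts, Adamts1 held 60.6% of the 10 genes' counts in the control (60.1 to 61.1, exact binomial interval) and 29.9% in the mutant library (28.9 to 31.0). The order depends on the length used. With the median transcript length in place of the longest, Adamts2 stood at 83.7 CPM per kb in the mutant library and Adamts1 at 58.7, and the summed level was 3.04-fold lower. In the control library Adamts2 then stood at 70.0 CPM per kb, above Adamts5 at 38.7 and Adamts10 at 14.2.

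**Figure D3:**
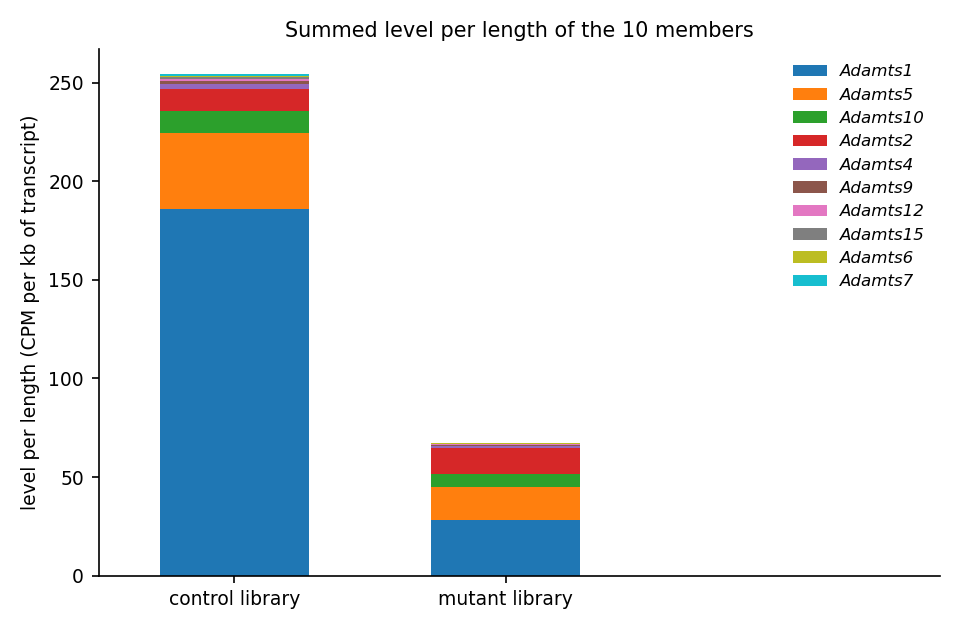
Stacked level per length (vertical axis, CPM per kb of the longest transcript) of the 10 ADAMTS genes in the control and the mutant library, 1 library each. The total of 254 in the control is mostly Adamts1, and the total of 67.5 in the mutant library is spread more evenly over Adamts1, Adamts5, Adamts2 and Adamts10.

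The 10 genes lie on 8 chromosomes. Adamts1 and Adamts5 are direct neighbours on chromosome 16, on the same strand, and both were called lower. Of the nearest protein-coding genes on either side of the 10, leaving out the members themselves, 12 of 18 had enough counts. Among these 12, 1 was called lower and 0 higher, beside 8.29% and 6.98% of all genes with enough counts. The one called lower was Zfp354c beside Adamts2 (515 and 118 counts, 3.28-fold lower, 2.68 to 4.04). On the far side of Adamts5, N6amt1 had 268 and 430 counts and was 2.13-fold higher (1.83 to 2.50), not called. Cyyr1, on the far side of Adamts1, had only 6 and 2 counts. These neighbours were chosen after other values had been seen.

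Reads of genes on opposite strands can be shared where exons overlap, because the strand setting of the counts is not given. Adamts7 overlaps exons of Tbc1d2b (1172 and 690 counts, 1.28-fold lower, 1.16 to 1.40). This partner had far more counts than Adamts7, so the value of Adamts7 is uncertain. Adamts4 also overlaps exons of an opposite-strand gene with far more counts, whose values are not reported here. The value of Adamts4 is uncertain in the same way. The 2 protein-coding genes that overlap exons of Adamts9 had 0 counts in both libraries.

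**Figure D4:**
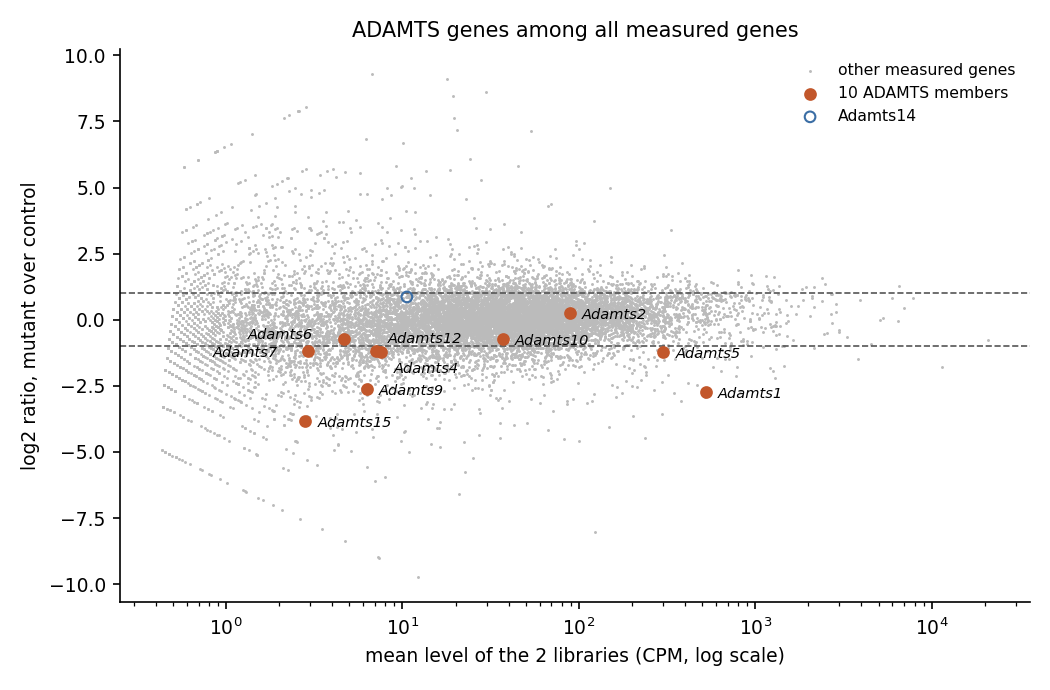
Log2 ratio of the mutant over the control library (vertical axis, prior count of 0.5) against the mean level of both libraries in CPM (horizontal axis, log scale) for the 13142 genes with enough counts (grey), the 10 ADAMTS genes (filled orange) and Adamts14 (open blue); dashed lines mark 2-fold. Adamts1 lies at the lower edge of the genes of its level, while Adamts2 lies in the middle.

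The ADAMTS-like genes encode proteins with the same repeats but no protease domain. Of the 6, 3 had enough counts, with 1 called lower and 1 higher. For this list and those below, the shares over all genes with enough counts were 8.29% lower and 6.98% higher. With so few genes per list, a single call says little about a list. Adamtsl4, whose protein binds fibrillin microfibrils, had 5226 and 1465 counts, which put it 2.68-fold lower (2.53 to 2.84). Adamtsl5 had 437 and 798 counts and was 2.43-fold higher (2.16 to 2.74), but it was not called with totals that omit the 100 most abundant genes. Adamtsl3 (808 and 1303 counts) was 2.15-fold higher (1.96 to 2.34) and not called, but it was called once length and GC trends were removed. Adamtsl1 had 6 and 3 counts, Adamtsl2 1 and 1, and Papln 0 in both.

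Other metalloproteinase families were split. Of 10 ADAM genes, which encode mostly membrane-bound proteins, not all of them active proteases, 2 were called higher and 2 lower. Their median log2 ratio was -0.19. Adam8 (111 and 457 counts) was 5.48-fold higher (4.44 to 6.80) and Adam19 4.76-fold higher (4.23 to 5.37). Adam23 was 4.28-fold lower (2.99 to 6.28), and Adam22 (39 and 6 counts) 4.89-fold lower (2.05 to 14.1) but not called once length and GC trends were removed. Adam22 reached the minimum count only through the control library. Of 12 MMP genes with enough counts among 16, 4 were called higher and 1 lower, with a median of -0.09. Mmp13 was 4.64-fold, Mmp23 3.42-fold and Mmp3 2.82-fold higher, and Mmp16 was 4.13-fold lower (3.76 to 4.54). Mmp12, the macrophage elastase gene, had 3 and 83 counts and reached the minimum count only through the mutant library. The difference between these families and the ADAMTS genes was not tested.

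**Figure D5:**
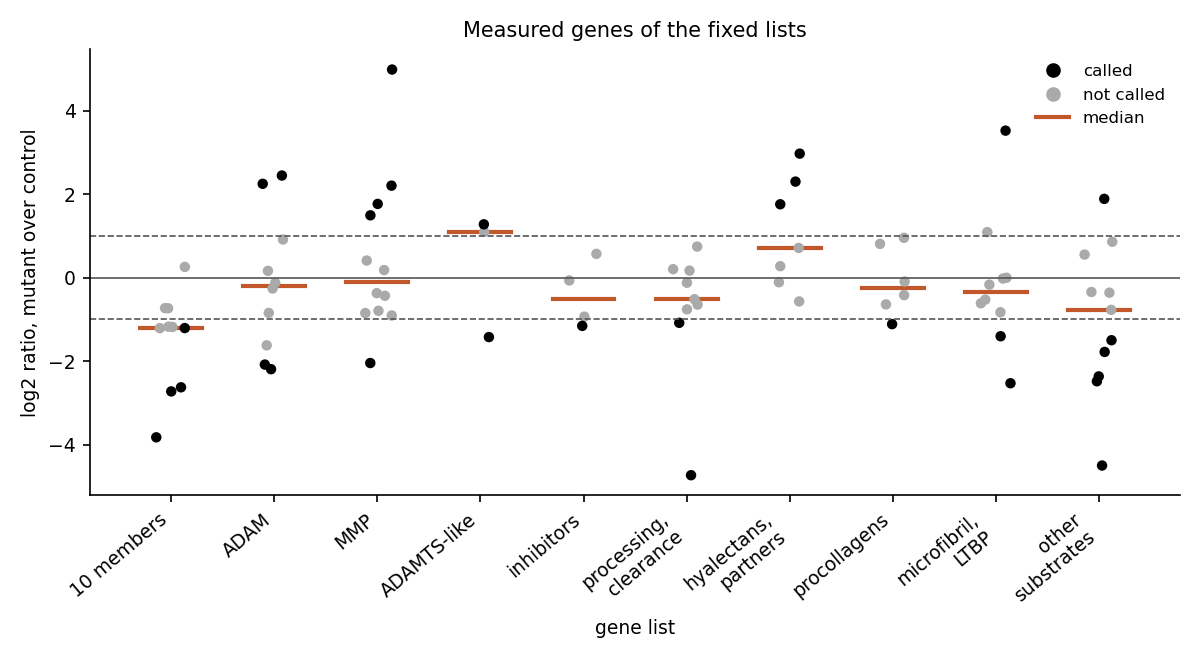
Log2 ratio of the mutant over the control library (vertical axis) for each gene with enough counts in 10 lists (horizontal axis), black where called and grey where not, with the list median as an orange bar; dashed lines mark 2-fold. The median is -1.19 for the 10 ADAMTS genes, -0.19 for the ADAM list and -0.09 for the MMP list, where genes lie on both sides of 0.

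Among inhibitors of the family, 1 of 4 genes with enough counts was called lower and 0 higher. Timp3, the main ADAMTS inhibitor gene, had 27402 control and 10793 mutant counts. It was 1.91-fold lower (1.87 to 1.95), which was not called, although it was called with unscaled totals and with totals that omit the 100 most abundant genes. Relative to Adamts1, Timp3 was higher in the mutant library, with a count ratio of 1.30 in the control and 4.52 in the mutant. Relative to Adamts5 it went from 2.84 to 3.43. The membrane-anchored inhibitor gene Reck was 2.23-fold lower (2.03 to 2.45), but not called once length and GC trends were removed. Timp1 was 1.49-fold higher (1.46 to 1.52) and Timp2 1.05-fold lower (1.03 to 1.06), both uncalled. A2m and Timp4 had at most 2 counts.

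Of 9 genes for activation, glycosylation and uptake of ADAMTS enzymes, 2 were called lower and 0 higher. The convertase gene Furin (4357 and 3775 counts) was 1.15-fold higher (1.10 to 1.20) and not called, whereas the related Pcsk5 had 194 and 5 counts, which put it 29.2-fold lower (12.3 to 90.8). Pcsk5 reached the minimum count only through the control library. Lrp1, the endocytic receptor gene that clears ADAMTS4 and ADAMTS5, was 2.12-fold lower (2.08 to 2.15), but it was not called once length and GC trends were removed, where its log2 ratio was -0.62.

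Substrate genes went both ways. Acan, the gene of aggrecan, had 1 count in each library, so the best-known target of the aggrecanases was barely detected. Vcan, the gene of versican, had 844 and 588 counts, which put it 1.08-fold lower (0.970 to 1.20), an interval that includes no difference. Without the length and GC trends its log2 ratio was 0.48. Of the other hyalectan genes, Bcan had 11 and 4 counts and Ncan 3 and 1, so only Vcan had enough counts. Of 7 hyalectan and partner genes with enough counts, 3 were called higher and 0 lower. The median of 0.71 was the value of Has1 (21 and 26 counts). Those called higher were all partner genes. They were the link protein genes Hapln1 (25 and 150 counts, 7.98-fold, 5.20 to 12.7) and Hapln4 (15 and 57 counts, 5.05-fold, 2.82 to 9.61) and the hyaluronan receptor gene Cd44 (3.39-fold, 3.26 to 3.52). Hapln4 reached the minimum count only through the mutant library.

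Of 6 procollagen genes, substrates of ADAMTS2 and ADAMTS14 or their close relatives, 1 was called lower. Col1a1 (131912 and 173952 counts) was 1.75-fold higher (1.74 to 1.77) and not called. Its count ratio to Adamts2 went from 70.7 in the control to 104 in the mutant library. Col3a1 was 1.07-fold lower (1.05 to 1.08), and its sign turned without the length and GC trends. Col5a1 was 2.16-fold lower (2.12 to 2.20), but not called without those trends. Of 10 microfibril and LTBP genes with enough counts, 2 were called lower and 1 higher, with a median of -0.35. Fbn1, the main fibrillin gene, was 1.53-fold lower (1.48 to 1.58) and not called, Fbn2 was 2.65-fold lower (2.32 to 3.03) though not without the trends, Efemp1 5.77-fold lower (5.42 to 6.15) and Mfap5 11.7-fold higher (7.89 to 18).

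Of 11 other substrate genes with enough counts, 5 were called lower and 1 higher, with a median of -0.77. The small proteoglycan gene Fmod had 3657 and 121 counts, which put it 22.7-fold lower (19.0 to 27.5). Dcn was 5.59-fold lower (5.36 to 5.83), and Comp, the substrate of ADAMTS7 and ADAMTS12, 5.16-fold lower (4.42 to 6.06). Thbs1 was 3.43-fold lower (3.41 to 3.46), and the other gene called lower was Bgn (2.83-fold, 2.79 to 2.86), which is named here after its value was seen. Vegfc, whose product matures with the help of ADAMTS3, was 3.72-fold higher (2.84 to 4.92), while Adamts3 itself had 0 counts.

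Markers of other cell types also differed between the libraries, and their part in the ADAMTS values was not tested. Of 8 chondrocyte markers, 5 had enough counts and 4 of these were called lower, among them Sox9 (2.66-fold, 2.45 to 2.90), Comp, Cnmd (99 and 2 counts) and Col11a2, the last not without the length and GC trends. Their summed level was 1623 CPM (control) and 1138 (mutant), with Col9a1 at 0 in both. Most of that sum was Col2a1 (1446 and 1083 CPM), which was 1.34-fold lower (1.31 to 1.36) and not called. Cnmd reached the minimum count only through the control library. Of 15 myeloid markers, 8 had enough counts and 6 were called higher, with Lyz2 at 11 and 276 counts and with Ctss, C1qa and Itgam at 0 in the control. Lyz2, Ctss, C1qa, Itgam and Mpeg1 (5 and 62 counts) reached the minimum count only through the mutant library, whereas Cd14 (121 and 237 counts) did not. The 15 markers had a summed level of 14.1 and 57.9 CPM, and Fcgr1, Ly86 and Ms4a7 were at 0 in both libraries. Of 6 smooth muscle markers, 4 had enough counts, with Tagln and Cnn1 called higher and Rgs5 (34 and 1 counts) lower, and a summed level of 1294 and 2827 CPM. The largest part of that sum was Acta2 (927 and 1500 CPM), which was 1.62-fold higher (1.59 to 1.65) and not called. Myh11 had 3 counts in each library, and Rgs5 reached the minimum count only through the control library. Endothelial markers had 2 of 8 genes with enough counts and none called, and a summed level of 97.2 and 109 CPM. Nearly all of that sum was Eng (96.3 and 108 CPM), which mesenchymal progenitors also express. Vwf had 14 and 8 counts, Kdr 0 and 14, Cdh5 0 and 3, Emcn 0 and 1, Tek 1 and 0, and Tie1 was at 0 in both libraries. Erythroid markers had none of 5 with enough counts, with 4 at 0 in both libraries and Alas2 at 6 and 2 counts.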

How the data were processed

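RNA was extracted from sorted cells and enriched for polyadenylated transcripts, per the labels' protocols. The authors deposited raw read counts for 35275 Ensembl genes, without normalization, in 1 column per genotype, although the design text speaks of 2 replicates. The submitters' processing notes list CASAVA, TopHat, edgeR and the build mm9 but no roles. For the counter, the annotation release and strandedness, nothing is stated in the sources used here.

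Symbols were matched for 34490 identifiers. Lengths and GC content come from the longest transcript per gene in GENCODE M21, on another build than the one named. Coordinates are given only for the promoter windows, which come from RefSeq (build GRCm38.p6). Totals were scaled by TMM in edgeR 4.0.16 (factors 1.0358 for the control and 0.9654 for the mutant). Clopper-Pearson intervals of the count split and conditional odds ratio intervals were computed in SciPy 1.17.1. A gene needed 20 counts over both libraries. Log2 ratios use a prior count of 0.5. Length and GC trends were fitted by lowess (span 0.3, statsmodels 0.14.6). The interval and trend steps were tested on simulated data.

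With 1 library per genotype, no test was run. The 10 genes, the 21 lists and the alternatives were chosen with earlier results of these data known. Named genes are the ADAMTS and ADAMTS-like genes, at most 4 called genes per list and direction, and 9 substrates, inhibitors and processing genes picked by role. Further uncalled genes are named for context. No measure of likeness between genes exists over 2 libraries. One overlapping gene is not reported here.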

Additional observations from a re-analysis of the deposited data

How the results depend on the processing

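Scaling was varied (unscaled totals, upper-quartile, size factors of DESeq2 1.42.0, totals that omit the 100 most abundant genes), as were the minimum count, fold threshold, interval width and prior count, and length and GC trends were removed. The count of ADAMTS genes called lower was 4 except for 3 without the length and GC trends (Adamts5 lost), 3 at a threshold of 3-fold and 7 at 1.5-fold, where 3.53% and 15.6% of all genes with enough counts were called lower, against 8.29% at 2-fold. It was 0 for genes called higher in each. Adamts1, Adamts9 and Adamts15 were called lower in 11 of 11 alternatives, but not all of these could have changed a call. All 10 genes had 100 or more counts and calls use no prior count, so neither setting could alter the call of a member. The 1.5-fold threshold could not undo a call made at 2-fold. The median log2 ratio of the 10 lay between -1.32 and -0.94. The summed level per length, 3.77-fold lower, was 4.04-fold with total counts, 4.11-fold without the most abundant genes and 3.04-fold with median transcript lengths, where Adamts2 weighs more, its median transcript being 1153 bases and its longest 7266. The median over all genes was -0.10 with total counts and -0.12 without the most abundant genes, and 37.5% and 35.6% of all calls were then higher, against 45.7%. Over 56 named genes, 278 of 280 alternative values kept their sign. The exceptions were Col3a1 and Vcan without the trends, where the cause was not tested. Most of the 56 were named because they were called, and another scaling shifts every ratio by the same small amount. Few signs could therefore change, and the tally says little about stability. Leaving out a replicate was not possible. No paired analysis was possible because each genotype has 1 library. Depth limits Adamts15 most, with 6 counts in the mutant library.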
